A study of Mus musculus with 42 samples.

Results

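The genes described here are those whose response to the TNFdARE genotype differed between 2 kinds of CD4 T cell, the regulatory (Treg) and the conventional (Tconv), of the nodes that drain the ankle. The comparison takes the 12 libraries of the inguinal and popliteal lymph nodes out of 42 in the study. It subtracts the genotype difference in Tconv, TNFdARE minus wild type (WT), from the same difference in Treg, and asks of each gene whether the remainder, the interaction, departs from 0. Of 14691 genes tested, 68 passed at an adjusted p below 0.05. A negative interaction means that the level in TNFdARE, set against WT, was lower in Treg than in Tconv on the log2 scale, and a positive interaction the reverse.

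The study compared Treg and Tconv of gut, ankle and their draining nodes in mice with TNF-driven inflammation. In the TNFdARE allele an AU-rich stretch that shortens the life of Tnf mRNA is deleted, so that mice make excess TNF and develop arthritis and ileitis. All 12 libraries, controls included, come from DEREG mice, which carry a transgene that expresses a fusion of the diphtheria toxin receptor and green fluorescent protein (GFP) under Foxp3 control. Cells were sorted on this GFP, so the sort reads the transgene and not Foxp3 protein. The 4 groups are TNFdARE Treg, WT Treg, TNFdARE Tconv and WT Tconv, WT being littermates with the DEREG transgene, and each group holds 3 libraries, named A, B and C for 3 independent experiments. No treatment is recorded. Age, strain background, the number of TNFdARE alleles and the number of animals behind a library are not stated, so p-values measure the spread between these samples.

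Treg restrain other T cells, and the transcription factor Foxp3 sets and holds their identity. They carry large amounts of the interleukin-2 receptor, which they need for survival, and of surface molecules such as Ctla4 and Lrrc32 (also called GARP, which anchors latent TGF-beta). Conventional CD4 T cells hold little of these, although activated cells can express several of them. TNF acts on Treg mainly through the receptor Tnfrsf1b, and type I interferon induces a broad set of antiviral genes in most cells.

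Library totals lay between 18261064 and 24847946 counts. Levels are given as CPM, which here are counts divided by each library’s TMM-adjusted size. Errors after log2 fold changes are standard errors worked back from the test, as the absolute change divided by the square root of the F statistic. Between 17835 and 19801 genes had a count in 10 libraries, but 29599 in TNFdARE Tconv B and 31454 in WT Tconv C, which stand apart in this respect. Without this pair 51 of the 68 genes still passed, and the interaction count became 99. The cell labels were met by their markers. Foxp3 lay between 1120 and 1320 CPM in the 6 Treg libraries and between 6.78 and 41.4 CPM in the 6 Tconv libraries, while Cd4 and Cd3e lay above 500 and 800 CPM in every library. Cd8a stayed below 0.5 CPM in all of them, while Cd8b1 lay between 11.3 and 28.9 CPM. In bulk RNA, more cells that carry a transcript and more transcript per cell cannot be told apart.

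Most of the genes that passed rose in TNFdARE Tconv. Of the 68 genes 9 belong to a list of core Treg genes and 3 to one of effector and tissue Treg, and 60 had a negative interaction and 8 a positive one, which is 0.408% and 0.0545% of the genes tested, or 0.463% together. Over all genes the median interaction was -0.03, and 54% of estimates were negative. By edgeR's quasi-likelihood test with Benjamini-Hochberg adjustment, the genotype effect itself was called for 884 genes in Treg (510 higher, 374 lower, 6.02% of those tested) and 418 in Tconv (343 higher, 75 lower, 2.85%). With the experiment as a replicate block the interaction called 154 genes (35 positive, 119 negative), the Treg effect 1617, and all 68 genes remained among the 154. DESeq2 called 180 (56 positive, 124 negative), and a fit of all 42 libraries 14, all negative.

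The 68 genes fell into classes by what each cell type did alone. In 23 the level rose in Tconv while the Treg effect did not pass: Foxp3, Lrrc32, Ctla4, Tigit, Coro2a, Sorcs2, Izumo1r, Maf, Stx1a, Prg4, Il2rb, Mndal, Etfbkmt, Slamf6, Zfp937, Angptl2, Cish, Gfi1, Mcub, Drc1, Tbc1d30, Gm4956 and Gm6637. Another 23 rose in both, more so in Tconv: Nrp1, Tnfrsf4, Ikzf4, Klrg1, Serpina3g, Arrdc4, Adam19, Endod1, Il1r2, Casp1, Casp4, Cd83, Lpxn, Apol9a, Apol9b, Dusp4, Adap1, Igkc, Osbpl3, Axl, Sdc4, Podnl1 and Plagl1. In 5 the effects passed in opposite directions, lower in Treg and higher in Tconv: Il2ra, Gzmb, Ecm1, Dennd2d and Xdh. A further 6 fell in Treg with no call in Tconv (Ms4a4c, Rcn1, Mapk11, Gbp4, Tlr1 and Ifit1bl1), and Ifi213 and Ifit2 fell in both, more in Treg. On the positive side 7 rose in Treg with no call in Tconv (Pnkd, Cd82, Mast4, Syngr2, Ighm, Kif13b and Smco4) and Cldnd1 rose in both, more in Treg. For Rflnb neither effect passed alone.

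**Figure D1:**
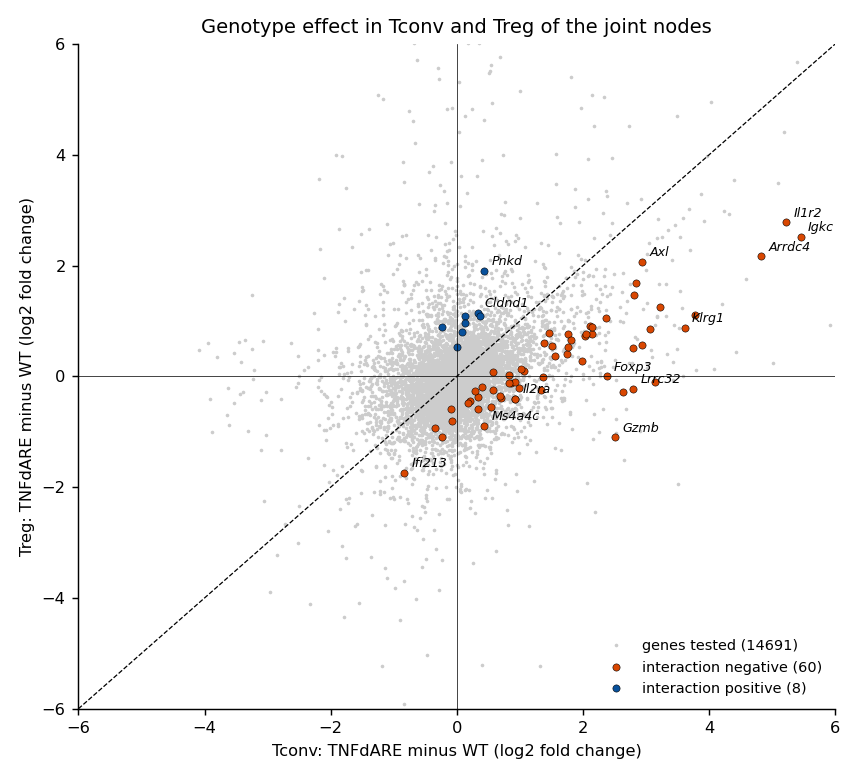
Genotype effect (TNFdARE minus WT, log2 fold change) in Tconv on the x axis and in Treg on the y axis for the genes tested in the joint nodes; 8 genes lie outside the axes. The 60 genes with a negative interaction lie below the dashed line of equal effects, most of them at Tconv values above 0, and the 8 with a positive interaction lie above it.

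Foxp3 (chromosome X, 7573644 to 7595245, plus strand, GRCm38) held 1320, 1150 and 1120 CPM in WT Treg A, B and C, and 1270, 1140 and 1190 CPM in TNFdARE Treg. In WT Tconv it held 6.78, 6.82 and 7.56 CPM, and in TNFdARE Tconv 37.8, 30.4 and 41.4 CPM. The Treg libraries of the genotypes overlapped, while every TNFdARE Tconv library was above every WT one. Over all genes tested, the genotypes were separate in either direction for 26.4% in Treg and 14.1% in Tconv. The fitted change was 0.00 ± 0.10 in Treg (adjusted p = 1) and 2.38 ± 0.11 in Tconv, a 5.19-fold rise (adjusted p = 6.6e-09), and the interaction was -2.37 ± 0.15 (adjusted p = 1e-06). Foxp3 in Tconv thereby went from 0.589% to 3.05% of the Treg level, and stayed below it in each experiment (2.98%, 2.67% and 3.48% in TNFdARE A, B and C, and 0.514%, 0.593% and 0.675% in WT).

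Lrrc32 (chromosome 7, 98489283 to 98502181, plus strand) showed the most negative interaction of the core Treg genes. It held 0.466, 1.2 and 1.35 CPM in WT Tconv and 5.35, 6.68 and 8.27 CPM in TNFdARE Tconv. In Treg it held 555, 493 and 531 CPM in WT and 443, 469 and 444 CPM in TNFdARE. TNFdARE libraries lay above WT in Tconv and below WT in Treg, where the change did not pass and 26.4% of all genes were separate. The Tconv rise was 6.95-fold (2.80 ± 0.24), the Treg change -0.22 ± 0.14 (adjusted p = 0.45) and the interaction -3.02 ± 0.28 (adjusted p = 0.00012).

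The receptor for interleukin-2 moved in opposite directions in part. Il2ra (chromosome 2, 11642807 to 11693193, plus strand), its alpha chain, held 1130, 1000 and 1090 CPM in WT Treg and 778, 833 and 824 CPM in TNFdARE Treg. In Tconv Il2ra went from 7.97, 8.47 and 9.93 CPM to 16.6, 15.3 and 18.1 CPM. TNFdARE Treg libraries were all below WT, and TNFdARE Tconv libraries all above. Both changes passed, -0.40 ± 0.08 in Treg (adjusted p = 0.0079) and 0.93 ± 0.09 in Tconv (adjusted p = 2e-05), with an interaction of -1.33 ± 0.12 (adjusted p = 7.9e-05). Il2rb, the signalling chain shared with interleukin-15, rose 1.78-fold in Tconv and was level in Treg (0.02 ± 0.10), and its interaction of -0.81 ± 0.14 passed in 6 of the 12 fits with a library left out (adjusted p up to 0.068).

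The third chain, Il2rg, changed by 0.07 in Tconv and 0.03 in Treg, and neither passed. Cish, a feedback inhibitor induced by interleukin-2 signalling, went from 10.9, 12.1 and 18.5 CPM to 27.3, 25.2 and 25.8 CPM in Tconv, with an interaction of -1.03 ± 0.20 (adjusted p = 0.038) that held in 1 of the 12 left-out fits. Of the 13 genes of the gamma-chain receptor list, Il2ra and Il2rb alone passed the interaction, against 0.463% of all genes. With the replicate block Jak3, the kinase bound to Il2rg, passed too (-0.45, adjusted p = 0.034).

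**Figure D2:**
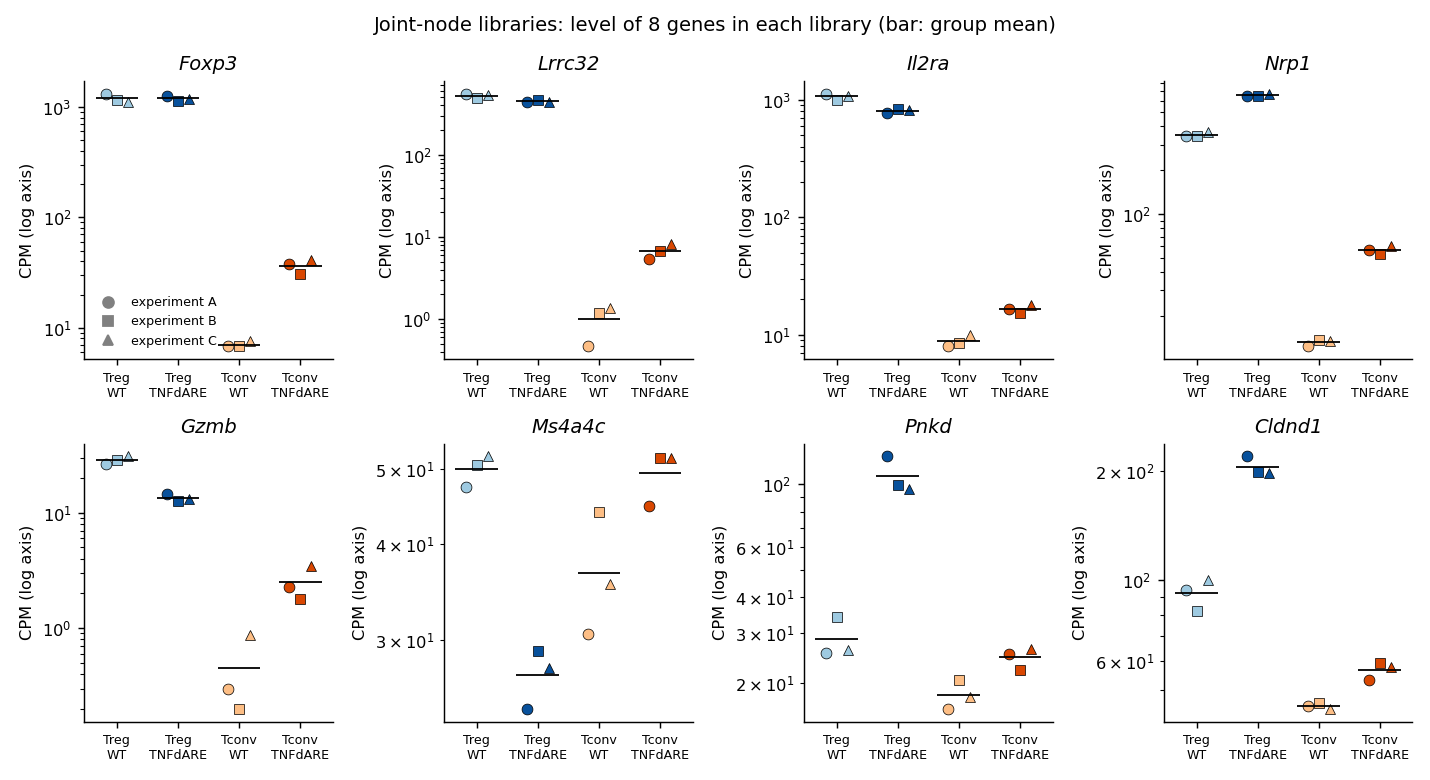
CPM (log axis) of 8 genes in each library of the 4 groups; symbols mark experiments A, B and C, and the bar is the group mean. Foxp3 and Lrrc32 rise in Tconv with no called change in Treg, Il2ra and Gzmb fall in Treg and rise in Tconv, Nrp1 rises in both, Ms4a4c falls in Treg only by the test, and Pnkd and Cldnd1 rise mainly in Treg.

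All 15 genes of the core Treg list had a negative estimate, with a median of -1.09 against -0.03 over all genes tested. Of these 9 passed the interaction (Foxp3, Lrrc32, Ctla4, Tnfrsf4, Il2ra, Nrp1, Izumo1r, Il2rb and Ikzf4), against 0.408% of all genes called negative. In Tconv 14 of 15 passed as higher, against 2.33% of all genes, with a median change of 1.38, and in all 15 the TNFdARE libraries lay above the WT ones, as in 14.1% of all genes in either direction. In Treg 4 rose (Capg, Ikzf4, Nrp1 and Tnfrsf4, against 3.47% of all genes), Il2ra fell, and the median was 0.02. Summed over the list, Tconv held 366.6 to 411 CPM in WT and 761.1 to 885 CPM in TNFdARE, while Treg held 7876 to 8394 and 8285 to 8777 CPM. With the replicate block 12 of the 15 passed, Nt5e, Gpr83 and Ikzf2 in addition, and with a library left out between 7 and 10. Ikzf2 (Helios), a Treg transcription factor, was among those that did not pass without the block (-2.14 ± 0.45, adjusted p = 0.1), with 2.71 to 7.99 CPM in WT Tconv and 21.2 to 28.4 CPM in TNFdARE Tconv.

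Ctla4 (chromosome 1, 60887000 to 60915832, plus strand), which removes costimulatory ligands from antigen-presenting cells, held 16.1, 13.5 and 12.7 CPM in WT Tconv and 40.9, 26.9 and 39.1 CPM in TNFdARE Tconv. In Treg it held 525, 530 and 547 CPM in WT and 480, 443 and 437 CPM in TNFdARE. Neither pair of groups overlapped, as for 26.4% of all genes in Treg, but the Treg change did not pass (-0.24 ± 0.12, adjusted p = 0.3). The interaction was -1.57 ± 0.18 (adjusted p = 0.00052). Izumo1r, the folate receptor 4 that marks Treg, rose 1.49-fold in Tconv, with an interaction of -0.82 ± 0.12 (adjusted p = 0.0045).

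Nrp1 (chromosome 8, 128358604 to 128503363, plus strand), a semaphorin receptor carried by thymus-derived Treg, rose in both cell types. It held 344, 346 and 366 CPM in WT Treg and 652, 651 and 672 CPM in TNFdARE Treg, against 12.3, 13.7 and 13.4 CPM and 57, 52.8 and 60.6 CPM in Tconv. The groups did not overlap in either cell type. The rise was 1.87-fold in Treg and 4.32-fold in Tconv, and the interaction was -1.21 ± 0.10 (adjusted p = 3.5e-05).

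Tnfrsf4 (OX40), a costimulatory TNF receptor family member, behaved alike, with 416, 407 and 425 CPM in WT Treg against 581, 527 and 541 CPM in TNFdARE Treg. In Tconv it held 14.1, 17.5 and 19.3 CPM in WT and 60.7, 53.1 and 57.4 CPM in TNFdARE, a 3.37-fold rise beside 1.32-fold in Treg (interaction -1.35 ± 0.13, adjusted p = 0.00012). The groups were separate in both cell types. The interaction of Ikzf4 (Eos), a partner of Foxp3, was -0.77 ± 0.15 (adjusted p = 0.038) and passed in 2 of the 12 left-out fits.

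Of the 19 genes of the effector and tissue Treg list 3 passed the interaction (Klrg1, Tigit and Maf), all negative, against 0.408% of all genes. Of its estimates 16 were negative, against 54% of all genes, and the median was -0.38. In Tconv 11 rose (2.33% of all genes) and in Treg 7 (3.47%), none fell. Klrg1, an inhibitory receptor of terminally differentiated effector cells, held 0.297, 0.398 and 0.486 CPM in WT Tconv and 6.01, 4.15 and 4.28 CPM in TNFdARE Tconv, a 12.3-fold rise, from 24 counts in all 3 WT libraries together. In Treg Klrg1 rose 1.84-fold, from 30.9, 32.4 and 33.2 CPM to 66.2, 57.9 and 53.1 CPM (interaction -2.74 ± 0.28, adjusted p = 0.00015). Its interaction missed the threshold by limma's voom (adjusted p = 0.058) and with all 42 libraries in the fit (adjusted p = 0.083). The groups did not overlap in either cell type. Gm6637, a processed pseudogene that lies beside Klrg1 on chromosome 6 and was singled out after its values were seen, had an interaction of -2.36 ± 0.39.

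Tigit, an inhibitory receptor that competes for CD155, held 0.594, 1.05 and 1.4 CPM in WT Tconv and 6.96, 6.88 and 6.95 CPM in TNFdARE Tconv (6.95-fold, interaction -2.29 ± 0.29, adjusted p = 0.0012). Its Treg levels were 26.5, 23 and 22.8 CPM in WT and 40.6, 32.7 and 29.6 CPM in TNFdARE. They did not overlap, as for 26.4% of all genes, and their change missed the threshold (adjusted p = 0.093). Maf, a transcription factor of interleukin-10 producing and follicular T cells, rose 2.95-fold in Tconv (interaction -1.20 ± 0.18, adjusted p = 0.0063). Of the 12 co-inhibitory receptors, Tigit and Ctla4 alone passed the interaction, against 0.463% of all genes.

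Gzmb (chromosome 14, 56258838 to 56262260, minus strand), the cytotoxic protease granzyme B that activated Treg can also use, had the most negative interaction of the genes named by the rule, -3.60 ± 0.44 (adjusted p = 0.0011). In WT Treg it held 26.5, 28.7 and 30.7 CPM and in TNFdARE Treg 14.5, 12.6 and 13 CPM, a change of -1.10 ± 0.24 (adjusted p = 0.014). In WT Tconv it held 0.297, 0.199 and 0.864 CPM, 27 counts in all, and in TNFdARE Tconv 2.27, 1.77 and 3.45 CPM, 167 counts in all (2.51 ± 0.37, adjusted p = 0.00078). TNFdARE libraries lay below WT in Treg and above WT in Tconv. Gzmb in Tconv thus went from 1.58% to 18.7% of the Treg level. Of the 11 genes of the cytotoxic list Gzmb alone passed, against 0.463% of all genes. Perforin (Prf1) changed by -0.36 in Treg and 0.09 in Tconv, and neither passed.

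The other genes with opposite effects were Ecm1, Dennd2d and Xdh. Ecm1, a secreted matrix protein that binds the interleukin-2 receptor beta chain, held 468, 415 and 494 CPM in WT Treg and 293, 285 and 344 CPM in TNFdARE Treg. In Tconv it went from 64.7, 63.2 and 60.5 CPM to 81.5, 79.4 and 77.7 CPM (interaction -0.92 ± 0.12, adjusted p = 0.0014). Dennd2d, a regulator of Rab GTPases, was the only gene of the 5 with the higher WT level in Tconv, 319, 273 and 286 CPM against 154, 166 and 167 CPM in Treg. It rose 1.27-fold in Tconv and its Treg level fell by 0.37 on the log2 scale. Xdh, xanthine dehydrogenase of purine breakdown, had an interaction of -1.09 ± 0.18 (adjusted p = 0.0089). In Treg and in Tconv alike, the genotypes did not overlap for any of the 3, as for 26.4% of all genes in Treg and 14.1% in Tconv.

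How far Tconv came toward Treg differed from gene to gene. Of the 60 genes with a negative interaction 51 rose in Tconv, and all of these but Dennd2d had the higher WT level in Treg. That level comes from libraries the interaction also uses, so it is a description. It was judged by sign alone, and the share of all genes by sign was not counted. By call, which is stricter, 2491 of 14691 genes were higher in WT Treg than in WT Tconv. The CPM gained by Tconv, as a percent of the TNFdARE Treg level, ran from 0.97% for Il2ra to 104% for Podnl1, a leucine-rich repeat matrix protein, with a median of 12%. It was 1.27% for Lrrc32, 2.46% for Foxp3, 4.75% for Ctla4, 6.63% for Nrp1, 7.48% for Klrg1 and 17.2% for Tigit. Only Il2ra and Lrrc32 gained no more than Foxp3 in these terms, while 34 of the 51 gained above 10% and 13 above 30%. Within the core Treg list the gain lay between 0.97% and 12.5%. Whether the Tconv sort held cells with Treg RNA was not tested.

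**Figure D3:**
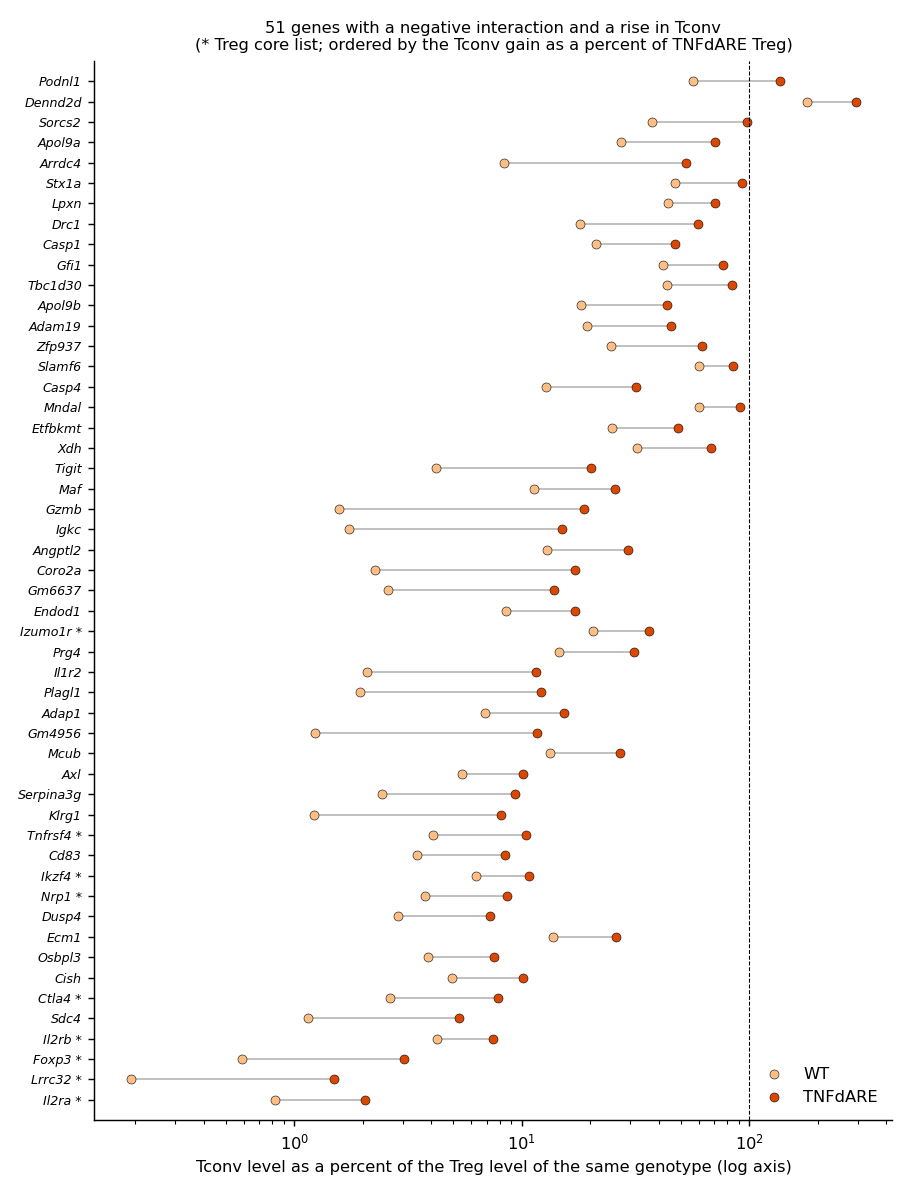
Level in Tconv as a percent of the level in Treg of the same genotype (log axis) for the 51 genes with a negative interaction that rose in Tconv; pale points are WT, dark points TNFdARE, and the dashed line is an equal level. Il2ra, Lrrc32 and Foxp3, of the core Treg list (asterisks), sit at the bottom, Foxp3 moving from 0.589% to 3.05%, while Sorcs2 and Stx1a near the top reach 97.9% and 92.8%.

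Sorcs2 and Stx1a nearly reached their Treg level. Sorcs2, a sorting receptor for neurotrophins, held 12.5, 11.3 and 15 CPM in WT Tconv and 34.7, 30.2 and 35.3 CPM in TNFdARE Tconv. Its Treg libraries overlapped, at 37.3, 33.4 and 32.7 CPM in WT and 30.2, 31.3 and 40.8 CPM in TNFdARE, so that the Tconv groups alone were separate (interaction -1.39 ± 0.19, adjusted p = 0.0026). Stx1a, a membrane fusion protein, rose from 13.3, 16.5 and 13 CPM to 30.4, 30.1 and 29.1 CPM in Tconv and lay between 27.8 and 33 CPM in all Treg libraries (interaction -0.97 ± 0.15, adjusted p = 0.0075). Coro2a, an actin-binding coronin, showed a wider spread in TNFdARE Tconv, 49.3, 38.1 and 79.3 CPM against 10.9, 6.62 and 9.29 CPM in WT, and reached 17.1% of its TNFdARE Treg level of 325, 308 and 339 CPM. Its interaction was -2.92 ± 0.33 (adjusted p = 0.002). Drc1, a component of motile cilia, had an interaction of -1.72 ± 0.34 (adjusted p = 0.041) that passed in 3 of the 12 left-out fits.

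Of the 23 genes that rose in both cell types with the larger fold in Tconv, 19 gained more CPM in Treg. For these the sign of the comparison depends on the scale, log2 or linear. Il1r2, the decoy receptor of interleukin-1, went from 23.1, 28 and 29 CPM to 231, 170 and 148 CPM in Treg. In Tconv it went from 0.763, 0.199 and 0.702 CPM (35 counts in all) to 23.7, 18.7 and 21.3 CPM. No groups overlapped. The fold was 6.87 in Treg and 37.4 in Tconv (interaction -2.45 ± 0.37, adjusted p = 0.0063). The call held in all 12 left-out fits, but not by limma's voom (adjusted p = 0.32) or with all 42 libraries in the fit. Among the 14 interleukin-1 family receptor genes Il1r2 alone passed without the replicate block, against 0.463% of all genes. With the block Il18rap, Il18r1 and Irak2 passed too.

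Arrdc4, an arrestin-like protein tied to glucose uptake, rose 4.49-fold in Treg and 28.4-fold in Tconv, where it reached 35.9, 40.5 and 61.3 CPM from 1.4, 1.39 and 2.11 CPM (interaction -2.66 ± 0.35, adjusted p = 0.0026). By limma's voom the Arrdc4 interaction did not pass (adjusted p = 0.085). Serpina3g, a protease inhibitor of a family with close copies, among which reads may be split, rose 2.38-fold and 9.35-fold (interaction -1.97 ± 0.22, adjusted p = 0.0005). The inflammatory proteases Casp1 and Casp4, neighbours on chromosome 9, rose together. Casp1 held 7.72, 5.68 and 7.72 CPM in WT Tconv and 49.7, 51.2 and 50.2 CPM in TNFdARE Tconv, beside 32, 28.5 and 39.7 CPM and 104, 103 and 114 CPM in Treg (interaction -1.16 ± 0.18, adjusted p = 0.0063). The interaction of Casp4, -1.33 ± 0.23 (adjusted p = 0.012), was lost without WT Tconv B or TNFdARE Treg A (adjusted p up to 0.058).

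The exceptions that gained more CPM in Tconv were Adam19, Lpxn, Apol9a and Podnl1. Adam19, a metalloprotease, went from 12.8, 18.8 and 15.3 CPM to 54.7, 52.8 and 51.7 CPM in Tconv and from 72.5, 85.6 and 85.1 CPM to 106, 115 and 131 CPM in Treg (interaction -1.23 ± 0.17, adjusted p = 0.0027). Podnl1 was the only gene of the class to pass its Treg level, with 19.6, 20.3 and 20.3 CPM in TNFdARE Tconv against 12.4, 17 and 14.5 CPM in TNFdARE Treg. Apol9a and Apol9b are close copies whose reads may be split between them, and both had negative interactions (-1.38 ± 0.24 and -1.26 ± 0.24), which passed in 7 and 4 of the 12 left-out fits.

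Several genes of this class had few counts in WT Tconv. Igkc, the kappa light chain constant segment, held 4 counts over the 3 WT Tconv libraries and 198 over the TNFdARE ones (0.0848, 0.0996 and 0 CPM against 3.31, 3.24 and 2.63 CPM), and rose 5.73-fold in Treg to 25.7, 17.9 and 17.1 CPM. Its interaction of -2.93 ± 0.55 (adjusted p = 0.03) passed in 3 of the 12 left-out fits. Plagl1, a zinc finger factor with 13 counts in WT Tconv, and Sdc4, a heparan sulfate proteoglycan with 21, had interactions of -2.67 ± 0.54 and -2.21 ± 0.44. Each passed in 2 of the 12 left-out fits (adjusted p up to 0.15 and 0.14).

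A smaller set of genes fell in TNFdARE Treg. Ms4a4c (chromosome 19, 11404770 to 11427246, plus strand), a membrane protein of an interferon-responsive cluster, held 47.4, 50.6 and 51.9 CPM in WT Treg and 24.4, 29 and 27.6 CPM in TNFdARE Treg. In Tconv it held 30.5, 43.9 and 35.5 CPM in WT and 44.8, 51.7 and 51.7 CPM in TNFdARE. The genotypes did not overlap in either cell type, although the Tconv change missed the threshold (0.43 ± 0.12, adjusted p = 0.084), and the interaction was -1.32 ± 0.17 (adjusted p = 0.0017). Rcn1, a calcium-binding protein of the secretory pathway, went from 187, 165 and 157 CPM to 101, 96.5 and 93.8 CPM in Treg and overlapped in Tconv (interaction -0.73 ± 0.12, adjusted p = 0.0094). Tlr1 and Mapk11 had interactions of -0.66 ± 0.13 and -0.65 ± 0.12, each passing in 3 of the 12 left-out fits.

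Type I interferon-induced genes fell in both cell types, and the interaction separated few of them. All 26 estimates were below 0 in Treg and in Tconv. In Treg 25 passed, against 2.55% of all genes, with a median of -1.07, and in Tconv 17, against 0.511%, with a median of -1.11. Although 23 of 26 interaction estimates were negative, from -1.78 to 0.42 with a median of -0.28, Ifit1bl1 alone passed, against 0.463% of all genes. With the replicate block Zbp1, a sensor of nucleic acids, passed too (-0.45, adjusted p = 0.032), and with RLE scaling 0 of the 26 did. Ifit1, an inhibitor of viral translation, went from 74.5, 73.2 and 108 CPM to 20.8, 18.1 and 13.3 CPM in Treg and from 87.9, 91.2 and 135 CPM to 37.9, 31.4 and 26.1 CPM in Tconv (interaction -0.57 ± 0.31, adjusted p = 0.73). Groups were separate in both cell types. Summed over the list, Treg held 1846 to 2208 CPM in WT and 1168 to 1249 CPM in TNFdARE, and Tconv 1811 to 2112 and 1313 to 1375 CPM.

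Ifit1bl1 (chromosome 19, 34592891 to 34601956, minus strand), a paralogue of Ifit1 among which reads may be split, held 80.8, 90.6 and 107 CPM in WT Treg and 38.4, 50.9 and 41.4 CPM in TNFdARE Treg. In Tconv its groups overlapped, with 95.7, 107 and 116 CPM in WT and 85.4, 84.1 and 102 CPM in TNFdARE. The interaction of -0.86 ± 0.18 (adjusted p = 0.046) passed in 2 of the 12 left-out fits. Outside the list and chosen after their values were seen, Ifi213 and Ifit2 showed the same order. Ifi213 (chromosome 1, 173566283 to 173599274, minus strand), of the cluster of interferon-inducible DNA sensors, went from 88.1, 98.5 and 100 CPM to 32.2, 28.8 and 25 CPM in Treg. In Tconv it went from 140, 123 and 145 CPM to 80, 70 and 79.4 CPM (interaction -0.91 ± 0.14, adjusted p = 0.0069). Both pairs of groups were separate.

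Ifit2, another inhibitor of viral translation, had an interaction of -0.59 ± 0.11 (adjusted p = 0.032) that passed in 2 of the 12 left-out fits. Mndal, a neighbour of Ifi213 in the same cluster, moved otherwise: it rose in Tconv from 251, 238 and 256 CPM to 324, 316 and 344 CPM and did not pass in Treg (interaction -0.60 ± 0.10, adjusted p = 0.012, passing in 7 of the 12 left-out fits). Among 15 guanylate-binding proteins and immunity GTPases, Gbp4 alone passed, against 0.463% of all genes. Its interaction was -0.50 ± 0.10 (adjusted p = 0.037, passing in 2 of the 12 left-out fits). With the replicate block Gbp9 passed too (-0.56, adjusted p = 0.037). Gbp4 held 509, 521 and 554 CPM in WT Treg and 352, 376 and 330 CPM in TNFdARE Treg, while its Tconv groups overlapped.

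A letter pattern upstream of the start site was counted in these genes, and most of them lack it. The letters GAAA, a pair of bases of any kind and GAAA again, on either strand, the core of the interferon-stimulated response element, occurred in the 250 bases before the start in 2.98% of 32851 RefSeq promoter windows (GRCm38.p6), which is 3.46% of genes. They occurred in 11 of the 19 interferon-list genes with a window (57.9%), in 6 of the 42 such genes with a negative interaction (14.3%: Apol9a, Apol9b, Coro2a, Ifi213, Ifit1bl1 and Mndal) and in 0 of the 6 with a positive one. Copies may overlap. The STAT dimer letters TTCNNNGAA occurred in 8.13% of all genes with a window and in 11.9% of the 42. The windows printed here are those of Ifi213 and Ifit1bl1, which fell more in Treg, and of Ifit1, which fell in both, read 5′ to 3′ on the gene's strand with the matching letters in capitals.
Ifi213 (chr1:173599273-173599522, minus strand): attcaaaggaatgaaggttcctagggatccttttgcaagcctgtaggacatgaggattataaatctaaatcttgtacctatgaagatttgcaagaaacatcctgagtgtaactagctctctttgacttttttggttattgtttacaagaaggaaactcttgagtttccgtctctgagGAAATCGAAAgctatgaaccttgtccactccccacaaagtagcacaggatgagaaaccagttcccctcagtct
Ifit1bl1 (chr19:34601969-34602218, minus strand): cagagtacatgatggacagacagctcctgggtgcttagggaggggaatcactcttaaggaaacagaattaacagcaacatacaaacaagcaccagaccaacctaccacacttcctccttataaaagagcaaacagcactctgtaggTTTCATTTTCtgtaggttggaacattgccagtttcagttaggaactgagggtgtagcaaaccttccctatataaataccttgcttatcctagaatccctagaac
Ifit1 (chr19:34640639-34640888, plus strand): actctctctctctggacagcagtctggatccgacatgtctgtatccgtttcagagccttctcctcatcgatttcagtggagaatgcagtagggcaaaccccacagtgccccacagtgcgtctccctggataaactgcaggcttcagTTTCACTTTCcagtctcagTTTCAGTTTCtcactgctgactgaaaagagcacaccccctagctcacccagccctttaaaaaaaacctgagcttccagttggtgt
The Ifit1 window holds 2 copies, starting 104 and 85 bases before the start site. The Ifi213 and Ifit1bl1 windows hold 1 copy each, at 73 and 104 bases. A match is a description of letters and not of a bound site.

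**Figure D4:**
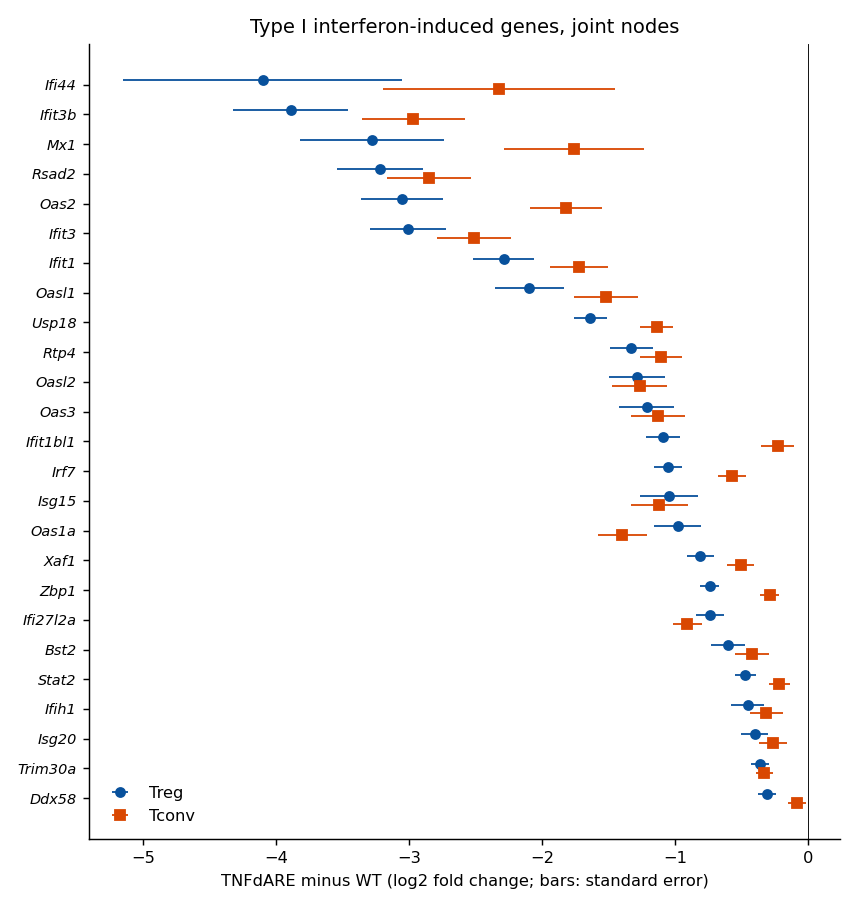
Genotype effect (log2 fold change, bars are standard errors) of 25 type I interferon-induced genes in Treg (circles) and Tconv (squares), ordered by the Treg value. Every point lies below 0, and the Treg point lies left of the Tconv point for 22 of the 25 genes drawn.

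Genes that rose more in Treg were few. Pnkd (chromosome 1, 74284930 to 74353694, plus strand), whose product is named for a paroxysmal movement disorder, held 25.5, 34 and 26.2 CPM in WT Treg and 125, 99.3 and 96.2 CPM in TNFdARE Treg. In Tconv it held 16.2, 20.5 and 17.9 CPM in WT and 25.2, 22.2 and 26.4 CPM in TNFdARE. The groups were separate in both, but only the Treg rise passed (3.74-fold, adjusted p = 9.7e-07, against adjusted p = 0.15), and the interaction was 1.47 ± 0.19 (adjusted p = 0.0017).

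Cldnd1 (chromosome 16, 58727910 to 58734251, plus strand), a claudin-like membrane protein, held 93.7, 82.3 and 100 CPM in WT Treg and 219, 198 and 197 CPM in TNFdARE Treg. In Tconv it went from 45.2, 45.8 and 44.2 CPM to 53.1, 59 and 57.7 CPM. Both rises passed and no groups overlapped, at 2.22-fold in Treg and 1.26-fold in Tconv (interaction 0.82 ± 0.12, adjusted p = 0.003). Pnkd and Cldnd1 were the genes with a positive interaction that passed in all 12 left-out fits.

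Cd82, a tetraspanin, held 384, 355 and 360 CPM in WT Treg and 719, 607 and 586 CPM in TNFdARE Treg, while the Tconv groups overlapped between 316 and 362 CPM. Its interaction of 0.71 ± 0.12 (adjusted p = 0.0094) was lost without WT Treg B (adjusted p = 0.051). Syngr2, a vesicle membrane protein, Kif13b, a kinesin motor, Mast4, a microtubule-associated kinase, and Smco4, a small membrane protein, had interactions of 0.71 ± 0.14, 1.12 ± 0.21, 0.96 ± 0.18 and 0.83 ± 0.16. They passed in 2, 3, 5 and 1 of the 12 left-out fits. Kif13b held 15.6, 18.5 and 22.1 CPM in WT Treg and 34.6, 35.4 and 34.5 CPM in TNFdARE Treg, with no called change in Tconv.

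Tnf itself (chromosome 17, 35199381 to 35202007, minus strand) held 84.2, 93.7 and 58.4 CPM in WT Treg and 117, 114 and 83.2 CPM in TNFdARE Treg, and 51.9, 54.2 and 24.3 CPM and 71.9, 68.1 and 54.1 CPM in Tconv. The genotypes overlapped in both cell types. Neither change passed (0.41 ± 0.28 and 0.57 ± 0.28), and the interaction was -0.16 ± 0.39 (adjusted p = 0.98), turning to 0.12 without WT Tconv C. Of 20 TNF and NF-kB response genes, 8 rose in Tconv (2.33% of all genes) and 5 in Treg (3.47%), and none fell. The interaction passed for Cd83 alone (0.463% of all genes), and with the replicate block also for Birc3.

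Cd83, a surface marker of activation, rose from 187, 192 and 216 CPM to 443, 388 and 410 CPM in Treg and from 5.51, 7.67 and 7.4 CPM to 33.9, 27.5 and 43.6 CPM in Tconv (interaction -1.30 ± 0.21, adjusted p = 0.0094). No groups overlapped. Birc3, an inhibitor of apoptosis induced by NF-kB, lay between 182 and 203 CPM in TNFdARE Tconv against 130 to 134 CPM in WT, with Treg between 181 and 214 CPM throughout, and its interaction missed the threshold (-0.44 ± 0.10, adjusted p = 0.067, or 0.027 with the block). Tnfrsf1b rose in both Treg and Tconv (0.51 and 0.50, interaction 0.01 ± 0.13). Tnfrsf25, a costimulatory receptor of the family, reached -0.56 ± 0.12 (adjusted p = 0.051, or 0.0077 with the block).

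No gene of the lists for naive cells, memory and activation, mucosal homing, type 1, type 2 and follicular cells, early antigen receptor response, cell cycle, MHC class I or II, immediate early response, glycolysis or cholesterol synthesis passed the interaction by edgeR's quasi-likelihood test. As 0.463% of all genes passed, an absence of calls in lists of this size lies near that share. Whether their effects were equal in both cell types was not tested. Median interactions in these lists lay between -0.33 for homing receptors and 0.31 for memory and activation, against -0.03 over all genes. With the replicate block Id2 (0.70), Satb1 (-0.42) and both chains of the interleukin-18 receptor were among the genes that passed in these lists. DESeq2 called 3 positive and 1 negative among type 1 genes, 1 of each among homing receptors and 1 negative among naive genes. Over all genes DESeq2 called 56 positive and 124 negative. In the memory list 5 of 14 genes rose in Treg (3.47% of all genes) and 1 in Tconv (2.33%). Of 16 type 17 genes 12 were tested, of which 7 rose in Treg (3.47% of all genes) and 5 in Tconv (2.33%). Ccr6, a chemokine receptor of type 17 cells, rose from 65.1 to 76.5 CPM in WT Treg to 215 to 254 CPM in TNFdARE Treg, and from 5.05 to 7.29 CPM to 20.7 to 25.9 CPM in Tconv (interaction -0.08 ± 0.18, adjusted p = 0.97). Il18r1 and Il18rap, the chains of the interleukin-18 receptor, rose in Treg only by the test (1.18 and 1.49), and their interactions of 1.19 ± 0.26 and 1.24 ± 0.29 did not pass (adjusted p = 0.072 and 0.098), but did with the block (adjusted p = 0.032 and 0.027).

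**Figure D5:**
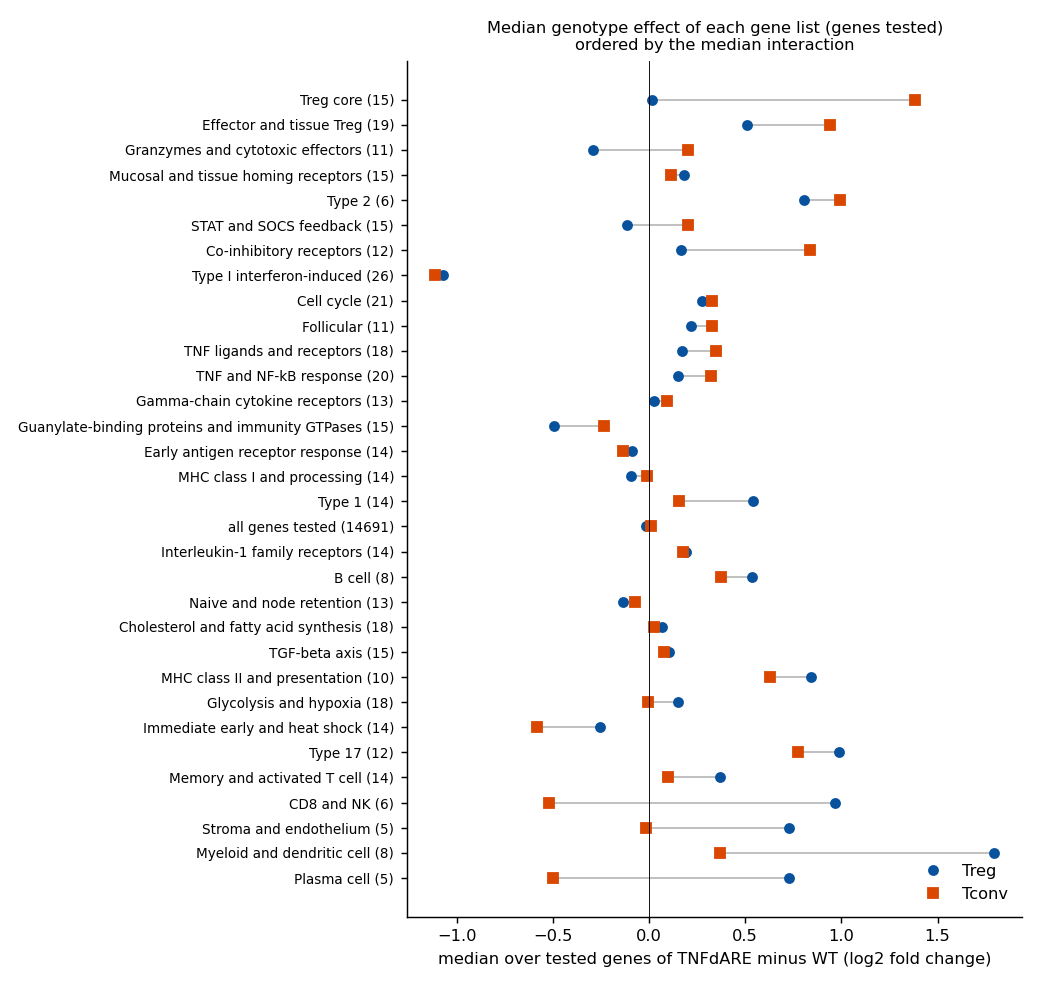
Median genotype effect (TNFdARE minus WT, log2 fold change) over the tested genes of each list, in Treg (circles) and Tconv (squares), ordered by the median interaction, for lists with at least 5 genes tested. The core Treg list lies at 0.02 in Treg and 1.38 in Tconv, and the interferon list at -1.07 and -1.11.

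Several markers of other cells moved with genotype. Of 13 B cell genes 8 were tested, of which 3 rose in Treg (3.47% of all genes) and 1 in Tconv (2.33%). Ighm, the mu heavy chain constant segment, held 792, 790 and 765 CPM in WT Treg and 1210, 1040 and 1130 CPM in TNFdARE Treg, with overlapping Tconv groups (interaction 0.53 ± 0.10, adjusted p = 0.031, passing in 3 of the 12 left-out fits). It made up most of the list's sum, 804.4 to 828.4 CPM in WT Treg and 1094 to 1273 CPM in TNFdARE Treg, against 761 to 828.6 and 770.3 to 854.1 CPM in Tconv. Ighd, the delta heavy chain, rose in Treg from 5.15 to 8.47 CPM to 16.7 to 21.5 CPM. Bank1, a B cell scaffold protein, rose in both, and in Tconv went from 2.19 to 3.62 CPM to 9.58 to 11.1 CPM. The defining factor Pax5 lay between 0 and 1.08 CPM.

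Of 12 plasma cell genes 5 were tested, and Igkc alone passed the interaction (0.463% of all genes). Igkc alone also rose in Treg (3.47% of all genes) and in Tconv (2.33%), as given above. The list's sum, mostly Xbp1, was 92.13 to 102.6 CPM in WT Tconv and 95.74 to 111.5 CPM in TNFdARE Tconv, with Jchain below 1 CPM in every library. Of 17 myeloid genes 8 were tested, with a median Treg change of 1.80. Ctss, Cst3 and Xcr1 rose in Treg (3.47% of all genes) and Ctss in Tconv (2.33%). The list's sum, mostly Ctss, was 364.2 to 426.4 CPM in WT Treg and 618.8 to 712.7 CPM in TNFdARE Treg. In Tconv it was 296 to 340.7 CPM in WT and 424.5 to 435.7 CPM in TNFdARE. Xcr1, a chemokine receptor of dendritic cells, went from 0.532 to 0.777 CPM to 2.63 to 9.19 CPM in Treg, while Tyrobp stayed below 1 CPM. The CD8 and NK list, 6 of 10 genes tested, summed to 13.98 to 18.85 CPM in WT Treg and 23.13 to 25.66 CPM in TNFdARE Treg, and to 53.21 to 61.6 and 44.21 to 47.76 CPM in Tconv. Its member Eomes rose in Treg (1.52, adjusted p = 0.032). The part of these cells in the interactions was not tested.

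The mesenteric node libraries of the same study, 10 in all and none shared with the 12, gave the same contrast. They come from the same experiments, so they are not an independent repeat. Both TNFdARE groups there hold libraries B and C only, without A. There 33 of 14820 genes passed (0.223%). Of the 68 joint-node genes 64 had the same sign, 56 of 60 negative and 8 of 8 positive, against 49.6% of all genes negative there, and 13 also passed with the same sign. In the mesenteric node the interaction was -1.89 for Foxp3 (adjusted p = 0.01), -1.19 for Il2ra (adjusted p = 0.025), -0.94 for Tnfrsf4 (adjusted p = 0.025), -2.62 for Coro2a (adjusted p = 0.012), -1.46 for Sorcs2 (adjusted p = 0.0021) and 1.05 for Pnkd (adjusted p = 0.033). Gzmb did not follow there (0.10, adjusted p = 1), nor did Serpina3g (0.28, adjusted p = 0.93). Of the 60 genes with a negative interaction 50 were called higher in Treg than in Tconv of the WT mesenteric node, against 15.7% of all genes. In the ileum, again of the same experiments, 4 of 15916 genes passed. There 49 of the 68 had the same sign, 46 of 60 negative and 3 of 8 positive, against 50.3% of all genes negative. Foxp3 alone of the 68 also passed there (-2.78, adjusted p = 0.0075). Whether the joint-node interactions differ from those at the other sites was not tested.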

How the data were processed

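RNA of sorted cells was amplified with SMART-Seq v4, from 1 of 2 stated input amounts not assigned to single libraries, and sequenced as single reads, per the labels' protocols. Reads were trimmed with cutadapt 1.15 and aligned with Bowtie2 2.3.3.1 to GRCm38, per the submitters' processing notes. The counting program, its strand setting and the annotation release are not given in the sources used here, so overlapping and antisense genes cannot be told apart. The authors deposited 1 table of raw counts for 46603 genes and 42 libraries, of which 46091 have a symbol. Their FPKM table was not used.

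The 12 joint-node libraries were fitted with edgeR 4.0.16 in R 4.3.3 (filterByExpr, TMM scaling, robust quasi-likelihood test, Benjamini-Hochberg adjustment over 14691 genes, threshold 0.05), with 1 mean per group and the interaction as a contrast. Libraries of 18261064 to 24847946 counts limit precision for genes of a few counts, and intervals cover the spread between 3 libraries per group. The letters A, B and C mark shared experiments per the labels. Of 18 same-letter pairs 11 had deviations from group means correlated above 0.1 (median 0.14, range -0.25 to 0.32). Alternatives were the experiment as replicate block, DESeq2 1.42.0, limma 3.58.1 (voom), RLE scaling, no filter, all 42 libraries in the fit, non-robust estimation and leaving out libraries, the last including a pair chosen after seeing the data. Scripts were tested on simulated data.

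Genes were named by rule: Foxp3, Lrrc32, Gzmb, Cldnd1 and Tnf, up to 15 genes with the most positive and 15 with the most negative interaction above a level filter and without predicted, pseudogene and receptor segment genes, and up to 5 called members of each list. Other genes past the test were named after their values were seen. The members and lists were chosen with earlier results of these data known. Promoter windows are RefSeq's (GRCm38.p6). 1 gene of the interferon list is counted but not reported here by name.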

Additional observations from a re-analysis of the deposited data

Results flagged for a closer look

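For 33 of the genes named by the rule, the genotype effect differed between Treg and Tconv by the interaction test. Each is given on the log2 scale. Apart from Foxp3, Lrrc32, Gzmb and Cldnd1, passing this test was a condition of being named. The other genes that passed are given above. Among Treg genes the interaction was -0.81 for Il2rb, -1.20 for Maf, -1.21 for Nrp1, -1.33 for Il2ra, -1.35 for Tnfrsf4, -1.57 for Ctla4, -2.29 for Tigit, -2.37 for Foxp3, -2.74 for Klrg1 and -3.02 for Lrrc32. Among the other genes with a lower value in Treg it was -0.50 for Gbp4, -0.86 for Ifit1bl1, -1.03 for Cish, -1.30 for Cd83, -1.38 for Apol9a, -1.39 for Sorcs2, -1.72 for Drc1, -1.97 for Serpina3g, -2.21 for Sdc4, -2.45 for Il1r2, -2.66 for Arrdc4, -2.67 for Plagl1, -2.92 for Coro2a, -2.93 for Igkc and -3.60 for Gzmb. Among genes with a higher value in Treg it was 1.47 for Pnkd, 1.12 for Kif13b, 0.96 for Mast4, 0.83 for Smco4, 0.82 for Cldnd1, 0.71 for Syngr2, 0.71 for Cd82 and 0.53 for Ighm.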

How the results depend on the processing

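All 68 interactions kept their sign when any 1 of the 12 libraries was left out, 32 passed in all 12 of those fits and 9 in every setting run. Against 68 genes in the interaction, the replicate block called 154, the replicate block within genotype 149, DESeq2 180, a filter of 1 count 224 and all 42 libraries in the fit 14. Leaving out 1 library gave 38 to 96, with 38 to 44 without TNFdARE Tconv C, WT Tconv B, any TNFdARE Treg library, WT Treg A or WT Treg B. Against 884 genes in Treg, the replicate block called 1617, DESeq2 1463, voom 1726, all 42 libraries 87, and leaving out 1 library 349 to 1114, with 349 to 564 without any TNFdARE Treg library, WT Treg B or WT Treg C. For Tconv, against 418, the replicate block gave 588, all 42 libraries 125, and leaving out 1 library 290 to 455. The cause of these moves was not tested. The Tnf interaction lay between -0.346 and 0.124 with 1 library left out, turning to 0.124 without WT Tconv C, and turned to 0.162 without both Tconv libraries that stand apart by genes detected. The block ended no call of the 68 genes. Genes with few counts in WT Tconv, such as Igkc, Plagl1 and Klrg1, are limited by depth.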

Other observations

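Ctss, the lysosomal protease cathepsin S, lay between 319 and 368 CPM in WT Treg and between 554 and 628 CPM in TNFdARE Treg, and between 244 and 288 CPM and between 359 and 371 CPM in Tconv. The genotypes did not overlap in either cell type, and the interaction was 0.34 ± 0.11 (adjusted p = 0.35, edgeR's quasi-likelihood test). Of 14 type 1 genes 7 rose in Treg (3.47% of all genes) and 4 in Tconv (2.33%), and none fell.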
